A study of Mus musculus with 4 samples.

Results

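The 33 genes described here are the immediate-early genes and the genes commonly induced through the transcription factor CREB: the AP-1 subunits, the EGR and NR4A transcription factors, the IER proteins, CREB-linked regulators, phosphatases that switch off MAP kinases, growth regulators, mRNA decay factors and the activation marker Cd69. They were taken by gene symbol from a list, with no threshold on their values. The list was, however, chosen with earlier results of these data known. Each of the 33 symbols matched 1 of the 55450 gene rows. All 33 had reads, and 32 were among the 18297 genes with enough reads to be tested. The exception was Jund, with 15 and 5 reads in agonist wells and 7 and 5 reads in control wells.

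RNA was sequenced from CD11c+ cells, a fraction rich in dendritic cells, bead-enriched from the mesenteric lymph nodes (MLN) of wild-type C57BL/6J mice. The agonist group, 2 libraries, had 10 µM of an Ffar2 agonist for 6 h, and the control group, 2 libraries, had water for the same time, all in serum-containing medium. Per the labels' protocols 2 MLNs were pooled for a sample, and the cells of each pool were shared out between 1 agonist and 1 control well, so both conditions have a replicate 2 and a replicate 3, called pool 2 and pool 3 here. The agonist's chemical name and the age of the mice were not given in the sources used here.

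Immediate-early genes are switched on within minutes of a stimulus by transcription factors that are already in the cell, so no new protein is needed, and most of their transcripts are short-lived. MAP kinase signals reach them through serum response factor, whose site is the CArG box, and cyclic AMP and calcium signals reach them through CREB, whose site is the cyclic AMP response element (CRE). Ffar2, a receptor for short-chain fatty acids, couples to Gi/o proteins, which lower cyclic AMP, and to Gq proteins, which raise calcium. In dendritic cells many of these genes accompany activation and maturation, and the handling of tissue is also known to induce many of them.

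The promoters of 5 members are shown as examples picked by the values below. Whether a motif goes with those values was not tested. Nr4a1 and Per1 passed the test between the pools and Fos lay the same way. Junb had the widest gap in mean CPM between agonist and control. Btg2 carries a full CRE and had a high level in every library. Each is the 250 bases before the gene's RefSeq start on GRCm38.p6, read 5′ to 3′ along the gene, and capitals mark the full CRE (TGACGTCA) or its core (TGACG, which reads CGTCA on the opposite strand). Fos lies at chr12:85473640-85473889 on the plus strand, Junb at chr8:84978749-84978998 on the minus strand, Nr4a1 at chr15:101266596-101266845 on the plus strand, the window of the second Per1 start at chr11:69099902-69100151 on the plus strand, and Btg2 at chr1:134079156-134079405 on the minus strand.
Fos: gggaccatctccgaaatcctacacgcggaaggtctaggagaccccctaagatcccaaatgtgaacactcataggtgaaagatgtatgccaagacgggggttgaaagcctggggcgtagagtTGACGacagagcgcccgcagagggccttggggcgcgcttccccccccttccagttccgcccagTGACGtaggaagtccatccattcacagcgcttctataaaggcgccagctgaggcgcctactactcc
Junb: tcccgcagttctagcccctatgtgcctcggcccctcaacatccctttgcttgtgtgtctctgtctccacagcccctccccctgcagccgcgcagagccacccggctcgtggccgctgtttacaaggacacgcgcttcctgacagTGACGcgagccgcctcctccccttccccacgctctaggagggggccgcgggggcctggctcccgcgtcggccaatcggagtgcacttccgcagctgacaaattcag
Nr4a1: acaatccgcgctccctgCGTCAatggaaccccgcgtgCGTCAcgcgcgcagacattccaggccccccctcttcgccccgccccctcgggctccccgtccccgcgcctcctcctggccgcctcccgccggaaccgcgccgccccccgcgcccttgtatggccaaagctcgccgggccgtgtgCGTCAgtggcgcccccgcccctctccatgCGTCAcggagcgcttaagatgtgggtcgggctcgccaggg
Per1: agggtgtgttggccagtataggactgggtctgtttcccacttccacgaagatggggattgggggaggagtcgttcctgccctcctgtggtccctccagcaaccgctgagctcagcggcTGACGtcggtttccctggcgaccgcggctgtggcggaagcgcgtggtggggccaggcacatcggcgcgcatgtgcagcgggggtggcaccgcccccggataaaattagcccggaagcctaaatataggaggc
Btg2: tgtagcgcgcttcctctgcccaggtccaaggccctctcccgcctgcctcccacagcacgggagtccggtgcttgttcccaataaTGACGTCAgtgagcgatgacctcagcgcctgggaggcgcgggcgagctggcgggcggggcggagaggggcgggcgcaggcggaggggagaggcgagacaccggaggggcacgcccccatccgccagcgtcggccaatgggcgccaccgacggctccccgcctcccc

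RefSeq promoter windows were at hand for 24 of the 33 members. The CRE core was found, on either strand, before 14 of the 24 (58.3%), and before 19.8% of all 27025 genes with a window. The full CRE stood before 3 of the 24 (Areg, Dusp1 and Btg2, 12.5%), against 1.77% of all genes, and each full CRE also counts as a core. The CArG box stood before 3 (Egr2, Dusp5 and Zfp36, 12.5%), against 1.62%, and the letters TATAA, searched on the gene's strand alone, before 7 (29.2%), against 18.4%. Nr4a1, Nr4a2 and Nr4a3 each held 4 cores, and Fos held 2, the nearer one starting 66 bases before the start. These are matches of letters and not measured binding. The list was drawn up to hold immediate-early and CREB-induced genes, so the higher shares of the CRE and of the CArG box are no independent result. The genes compared with were not matched to the members for base content. Fosl1, Egr1, Egr3, Ier2, Crem, Sik1, Dusp4, Myc and Cd69 had no window in the table used.

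Between 43238375 and 59902172 reads per library were assigned to genes, of which the members held 0.389% and 0.314% in agonist wells and 0.404% and 0.306% in control wells, pool 2 before pool 3 in each pair. Itgax, which encodes CD11c, was read in every library, and the 7 pan dendritic cell markers summed to between 23999 and 29222 CPM (read counts made comparable between libraries by TMM scaling). Markers of other cells were present as well: the 18 T cell markers summed to 1541 and 961 CPM in agonist wells and 1968 and 1203 CPM in control wells, and the 12 B cell markers to 1806 and 980 CPM and to 1981 and 1211 CPM. No T or B cell marker was at 0 in any library. In bulk RNA, fewer cells of a type and less RNA per cell cannot be told apart. The pools also differed in sex: Xist had 17776 to 21194 reads in pool 2 and 0 in pool 3, and the Y-linked gene Ddx3y had 18752 to 21461 reads in pool 3 and 0 in pool 2. The wells of pool 2 differed more from each other than those of pool 3. Agonist and control differed past 2-fold for 22.7% of tested genes in pool 2 and 15.2% in pool 3. Of 3592 genes at 50 CPM or more, 225 were higher in the agonist past 2-fold in pool 2 and 0 in pool 3. The fold changes of the 6 members with the smallest p are therefore given with and without the libraries of pool 2.

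Per length, 5 members averaged more than 50 RPKM, and none of them was a Fos, Jun or Egr gene. Levels are in RPKM, the scaled count divided by exon length, which is the scale on which genes can be compared. Klf6, a zinc-finger factor, led with 220.6 and 272 RPKM in agonist wells and 287 and 239 RPKM in control wells. Zfp36, which encodes the mRNA decay factor tristetraprolin, had 234 and 222 RPKM in agonist wells and 266 and 209 RPKM in control wells. The ranges of these 2 genes overlapped, and together they held between 48.1% and 59.3% of the members' reads. Btg2, an antiproliferative factor, followed with 134 to 177 RPKM over the 4 libraries, Ier3, a stress-response protein, with 66.7 to 84.6 RPKM, and Crem, a relative of CREB whose short forms repress CREB targets, with 55.5 to 62.4 RPKM. None of these 3 ranges met the one above it.

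A middle group averaged between 3 and 50 RPKM. It held Junb, Fos, Atf3, Dusp5, Zfp36l1, Nr4a1, Nr4a3 and Cd69 at a mean of 10 RPKM or more, then Dusp1, Nr4a2, Per1, Ier2, Myc, Ier5 and Dusp2. Sik1, Fosl2, Egr2, Jun, Dusp6 and Klf2 averaged between 1 and 3 RPKM. Junb, an AP-1 subunit, had the widest spread of these, 15.1 to 100.5 RPKM, which overlapped both Crem and Ier3 above it and Fos below it. Fos, the founding AP-1 partner, ran from 14.9 to 44.1 RPKM and Atf3, a stress-induced CREB-family repressor, from 15.3 to 38.1 RPKM, so that their order among themselves was within their spread. At the foot, 7 members stayed under 1 RPKM in every library: Fosb, Fosl1, Jund, Egr1, Egr3, Areg and Dusp4. Egr1, one of the best-known immediate-early genes, had only 135 and 46 reads in agonist wells and 125 and 40 reads in control wells. Jun, its product the usual partner of Fos, had 0.624 to 2.77 RPKM.

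**Figure D1:**
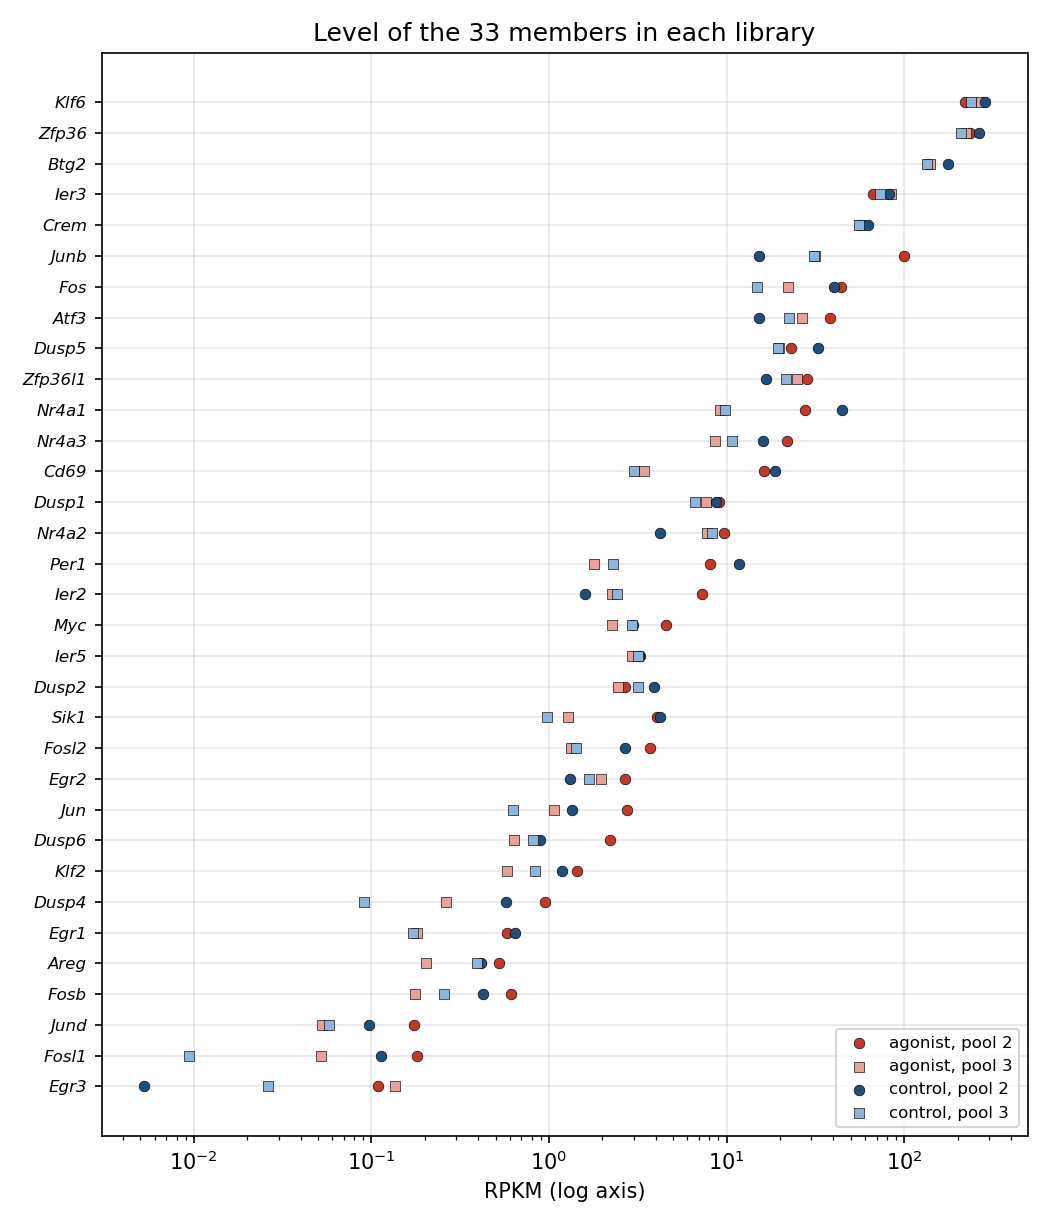
Level of each of the 33 members in each library, in RPKM on a log axis, ordered by mean; red marks agonist and blue control wells, circles pool 2 and squares pool 3. Klf6, Zfp36, Btg2, Ier3 and Crem hold narrow ranges at the top, while the circles of Cd69, Per1, Nr4a1 and Sik1 lie to the right of their squares whatever the treatment.

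Some exon sequence is shared with other genes, taken here on either strand. Reads that fit both genes were left uncounted, but at opposite-strand overlaps only if the counting ignored strand, which is not known. The share was 57.2% for Fosl1, 52.6% for Jund, 55.9% for Zfp36l1 and 22.1% for Dusp5, and at most 8.01% for any other member. The levels of these 4 genes are therefore uncertain, and Jund in particular may be undercounted.

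After 6 h with the agonist no member passed the test. Of 32 tested members 0 had an adjusted p under 0.05 in edgeR's quasi-likelihood test (Benjamini-Hochberg over 18297 genes), where 0% of all genes did, and every member's adjusted p was 0.9999 or more. At an unadjusted p under 0.05, 2 members were higher (Egr3 and Junb, 6.25%) against 0.639% of all genes, and 0 were lower against 0.940%. Egr3 was tested only through its agonist wells, which passed the minimum count of 10 that its control wells did not reach. The median log2 fold change was 0.16 over the members and -0.05 over all tested genes. It turned to -0.23 without the agonist well of pool 2 (all genes -0.02) and to -0.0075 without the control well of pool 3, and was 0.52 without the control well of pool 2 and 0.60 without the agonist well of pool 3. Leaving out a well leaves its arm with only the other pool, so these values also hold the difference between the pools. DESeq2 also called 0 members.

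The same cells fed both wells of a pool, and a second fit took the pool as a block. With the replicate block, 0 members had an adjusted p under 0.05, where 0.00547% of all genes did, which is 1 gene. Unadjusted, 4 members were higher (Atf3, Egr3, Jun and Junb) against 1.69% of all genes, and 0 were lower against 1.84%. The members' median with the block was 0.10. The unadjusted counts depended on the tool. With the block DESeq2 had 1 member under 0.05, and without the block DESeq2 had 2 and limma-voom 0.

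Junb had the largest difference in mean CPM between the conditions, and it lay in pool 2. Junb (chromosome 8, 84974484 to 84978718, minus strand, GRCm38) was at 231 and 72.6 CPM in the agonist wells of pools 2 and 3, against 34.8 and 71.3 CPM in the control wells. The agonist well of pool 2 was the highest and its control well the lowest of the 4, while the wells of pool 3 were nearly equal. The agonist mean was 152 ± 112 CPM and the control mean 53.1 ± 25.8 CPM (SD, n = 2 each), a log2 fold change of 1.52 (SE 0.61, with 0.03 to 3.00 as its 95% interval, edgeR unadjusted p = 0.0463, adjusted p = 0.9999). Without the agonist well of pool 2 it was 0.49, and without the control well of pool 2 it was 1.09.

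Egr3, a zinc-finger factor of the EGR family, was the only member more than 2-fold higher in the agonist in both pools, from very few reads. Egr3 had 25 and 34 reads in agonist wells, against 1 and 6 reads in control wells. Only the agonist wells brought it past the filter on low counts. Every count of higher members that includes Egr3 is therefore partly set by that filter. The groups did not overlap, but in pool 2 the CPM ratio of 20.9 has a 95% counting interval of 3.43 to 859.5. Its log2 fold change was 2.90 (SE 1.17, edgeR unadjusted p = 0.0462, adjusted p = 0.9999), a value that depends on the prior count at such levels. Without the agonist well of pool 2 it was 3.09, and without the control well of pool 2 it was 2.21. Intervals on read counts cover counting error only.

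Atf3, Egr2, Ier2 and Zfp36l1 complete the 6 members with the smallest p. Atf3 was at 82.0 and 57.5 CPM in agonist wells, against 33.03 and 48.4 CPM in control wells, a log2 fold change of 0.78 (SE 0.34, edgeR unadjusted p = 0.0597 without and 0.0348 with the block). Egr2, a zinc-finger factor of myeloid and nerve-sheath cells, was at 9.06 and 6.70 CPM in agonist wells, against 4.48 and 5.74 CPM in control wells, and its fold change was 0.62 (SE 0.40). Both genes were higher in the agonist well of each pool, with the wider gap in pool 2. Zfp36l1, an mRNA decay factor related to Zfp36, was at 84.5 and 74.9 CPM in agonist wells, against 50.2 and 64.8 CPM in control wells (log2 fold change 0.47, SE 0.28). Ier2, a nuclear early-response protein, was at 11.1 and 3.44 CPM in agonist wells, against 2.43 and 3.69 CPM in control wells (log2 fold change 1.24, SE 0.64), so that its gap, like that of Junb, lay in pool 2. Without the agonist well of pool 2 the fold change was 0.20 for Ier2, 0.53 for Atf3, 0.42 for Egr2 and 0.42 for Zfp36l1. Without the control well of pool 2 it was 0.97 for Ier2, 0.53 for Atf3, 0.45 for Egr2 and 0.30 for Zfp36l1. Without the block the other 26 tested members had an edgeR unadjusted p of 0.186 or more, the lowest being that of Jun. The log2 fold change of Jun was 0.96 (SE 0.64). With the block it was 0.90 (SE 0.40, edgeR unadjusted p = 0.04997, adjusted p = 0.9998). Within the pools the agonist well of Jun was higher by 1.03 in pool 2 and 0.76 in pool 3 in log2 CPM.

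Some members, though not Egr3, shared an order over the libraries. In 6 of 32 members (Atf3, Egr2, Ier2, Junb, Nr4a2 and Zfp36l1, 18.8%) the control well of pool 2 was lowest and the agonist well of pool 2 highest, against 11.0% of all tested genes. Nr4a2, an orphan nuclear receptor, had 39.4 and 31.4 CPM in agonist wells and 17.1 and 33.4 CPM in control wells. The 9 cDC1 markers summed to 704 and 588 CPM in agonist wells and 327 and 548 CPM in control wells. Of the 9 only Irf8 had that order, and it carried the sum: without it the sum was 199 and 324 CPM in agonist wells and 201 and 268 CPM in control wells. The part of these cells in the result was not tested.

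Counted by groups that do not overlap, 5 of 32 members (Atf3, Egr2, Egr3, Junb and Zfp36l1, 15.6%) had both agonist wells above both control wells, against 11.4% of all genes. Dusp2, a phosphatase of lymphoid and myeloid cells, was the 1 member with both agonist wells below, at 5.39 and 4.90 CPM against 7.83 and 6.32 CPM in control wells, where 13.5% of all genes did so. The T cell marker sum was lower in the agonist well of both pools. So were the sums for B cells, pDC, NK cells, cDC2 and stromal and endothelial cells. The plasma cell marker sum was 152 and 74.7 CPM in agonist wells, against 495 and 302 CPM in control wells. Yet 5 of the 7 plasma cell markers had a higher fitted value with the agonist. The cDC1 sum was higher in both pools. The part of these cells in these counts was not tested.

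**Figure D2:**
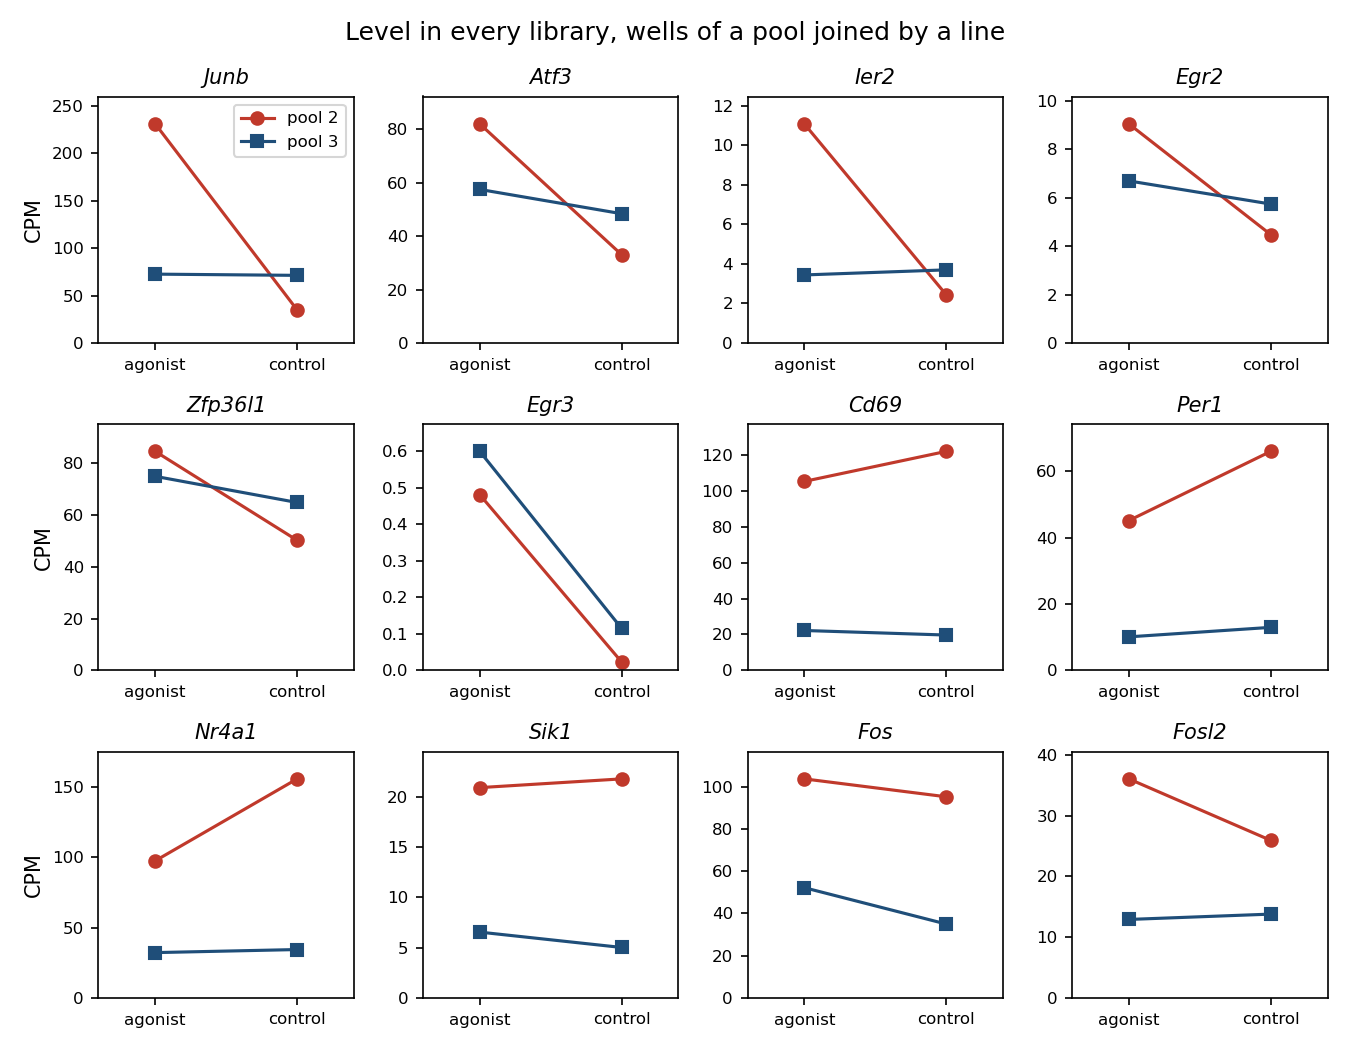
CPM in each of the 4 libraries for 12 members, with the agonist well left of the control well, red circles for pool 2, blue squares for pool 3, and a line joining the wells of a pool; each panel has its own axis from 0. Junb, Atf3, Ier2 and Egr2 are well above their control in the agonist well of pool 2 and near it in pool 3, whereas Cd69, Per1, Nr4a1 and Sik1 are set apart by pool.

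Most members, like most of all tested genes, did not go the same way in both pools. By log2 CPM of the agonist well minus the control well, 10 of 32 members were higher in both pools against 21.0% of all genes, 3 were lower in both against 27.8%, and 19 went opposite ways, as did 9256 of the 18297 tested genes. In pool 2 the agonist was higher past 2-fold for 8 members (Atf3, Dusp6, Egr2, Egr3, Ier2, Jun, Junb and Nr4a2, 25%) against 13.8% of all genes, and lower for 0 against 8.85%. In pool 3 it was higher past 2-fold for 3 (Dusp4, Egr3 and Fosl1) against 5.67%, and lower for 0 against 9.55%. All 3 were low: Dusp4 had 41 reads with the agonist and 13 in the control of pool 3, and Fosl1 had 6 and 1, a CPM ratio of 5.53 with a 95% counting interval of 0.670 to 254. The members' median ratio was 0.30 in pool 2, where that of all genes was -0.09, and 0.04 in pool 3, where that of all genes was -0.0048.

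**Figure D3:**
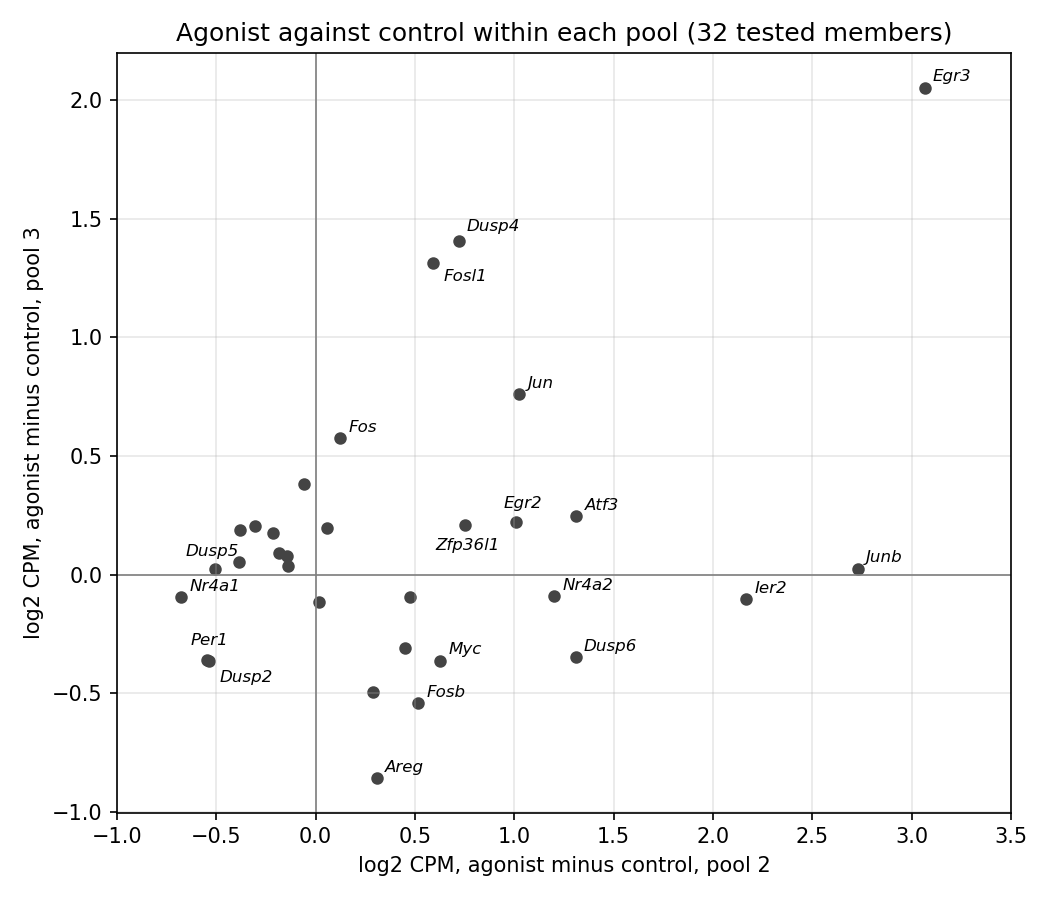
Agonist minus control in log2 CPM (prior count 2) for the 32 tested members, pool 2 on the horizontal and pool 3 on the vertical axis, with 1 well per arm and pool. Egr3 lies high in both pools, Junb and Ier2 lie far to the right near 0 for pool 3, and most other members gather around the origin.

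The most abundant members of the other roles showed no change that the test could call. Fos was at 104 and 52.2 CPM in agonist wells, against 95.2 and 35.0 CPM in control wells (log2 fold change 0.26, SE 0.55). Crem was at 334 and 335 CPM in agonist wells, against 368 and 327 CPM in control wells (log2 fold change -0.05, 95% interval -0.65 to 0.54). Klf6 was at 968 and 1196 CPM in agonist wells, against 1261 and 1050 CPM in control wells (log2 fold change -0.09, 95% interval -0.72 to 0.53). For Crem and Klf6 a change of 2-fold in either direction lay outside the interval, and the same held for Zfp36 (log2 fold change -0.06, interval -0.67 to 0.56) and Ier3 (-0.04, interval -0.71 to 0.63). Ier3 was at 75.4 and 95.7 CPM in agonist wells, against 93.4 and 83.1 CPM in control wells. Zfp36 was at 812 and 772 CPM in agonist wells, against 923 and 724 CPM in control wells.

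For the members that differ between pools the unblocked interval was wide, and the block narrowed it. Cd69, a lectin that holds activated leukocytes in lymphoid tissue, had a log2 fold change of -0.15 with a 95% interval of -2.48 to 2.17, and -0.02 with an interval of -0.59 to 0.55 with the block. Fos had 0.35 with an interval of -0.23 to 0.93 with the block. For Nr4a3, an orphan nuclear receptor, the value was 0.19 (SE 0.48) without and 0.07 (SE 0.27) with it. Dusp5, an ERK phosphatase of the nucleus, was at 57.1 and 48.9 CPM in agonist wells, against 81.1 and 48.1 CPM in control wells (log2 fold change -0.29, SE 0.34).

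Between the pools, 3 members passed the threshold that 0 passed between agonist and control. In the fit with group and pool as terms, Cd69, Per1 and Nr4a1 (3 of 32) were higher in pool 2 at an adjusted p under 0.05, against 0.290% of all genes, and 0 were lower against 0.104%. Unadjusted, 11 were higher (those 3 with Dusp4, Egr1, Fos, Fosb, Fosl2, Jun, Nr4a3 and Sik1, 34.4% in all) against 7.71%, and 0 were lower against 6.15%. The median log2 difference, pool 2 minus pool 3, was 0.54 over the members with quartiles of 0.09 and 1.25, and 0.01 over all tested genes. Each side of this comparison is 1 pool, so these p-values measure the spread between wells and not between pools. The sex of the mice cannot be told apart from the pool.

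Cd69 (chromosome 6, 129267325 to 129275436, minus strand) was at 105 and 122 CPM in the agonist and control wells of pool 2, against 22.2 and 19.7 CPM in those of pool 3. The pools did not overlap, and the gap between them was several times that between the wells of either. The log2 difference was 2.44 (SE 0.27, 95% interval 1.83 to 3.04, edgeR adjusted p = 0.0126). Per1, a clock gene that CREB induces directly (chromosome 11, 69095217 to 69109960, plus strand), was at 45.2 and 66.0 CPM in pool 2, against 10.1 and 13.0 CPM in pool 3 (log2 difference 2.25, SE 0.28, edgeR adjusted p = 0.0251). Nr4a1, an orphan nuclear receptor also known as Nur77 (chromosome 15, 101254269 to 101274795, plus strand), was at 97.6 and 156 CPM in pool 2, against 32.2 and 34.4 CPM in pool 3 (log2 difference 1.89, SE 0.27, edgeR adjusted p = 0.0325). These 3 calls were lost with libraries scaled by total counts alone (edgeR adjusted p of 0.150 to 0.168) and without the group term (0.0550 to 0.119). A library can be left out only of the fit without the group term, which by itself loses the calls. There the adjusted p was 0.240 to 0.513 without either library of pool 3 and 0.0033 to 0.026 without either library of pool 2. Over these settings the 3 differences lay between 1.54 and 2.52. With a stricter filter on low counts Per1 and Nr4a1 had an adjusted p of 0.0652.

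Members just outside that threshold lay the same way. Sik1, a kinase that CREB induces and that shuts off the CREB coactivators, was at 20.9 and 21.8 CPM in pool 2, against 6.54 and 5.02 CPM in pool 3 (log2 difference 1.90, SE 0.33, edgeR adjusted p = 0.0579). Fos was at 104 and 95.2 CPM in pool 2, against 52.2 and 35.0 CPM in pool 3 (1.22, SE 0.26, edgeR adjusted p = 0.0858). In each of these genes both wells of pool 2 exceeded both wells of pool 3. Fosl2, another Fos-family subunit, was at 36.0 and 25.9 CPM in pool 2, against 12.9 and 13.8 CPM in pool 3 (1.20, SE 0.31, edgeR adjusted p = 0.123). Nr4a3 was at 131 and 96.3 CPM in pool 2, against 51.9 and 64.3 CPM in pool 3 (0.96, SE 0.28, edgeR adjusted p = 0.159).

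The less abundant genes with an unadjusted p under 0.05 followed. Jun was at 8.83 and 4.32 CPM in pool 2, against 3.40 and 1.99 CPM in pool 3, and Egr1 at 2.60 and 2.87 CPM, against 0.811 and 0.766 CPM. Fosb, a Fos paralogue, was at 3.83 and 2.66 CPM in pool 2, against 1.09 and 1.61 CPM in pool 3. Dusp4, a nuclear MAP kinase phosphatase, was at 2.60 and 1.56 CPM in pool 2, against 0.723 and 0.249 CPM in pool 3. All 4 had fewer reads than the genes above and wider intervals, with log2 differences of 1.25 for Jun (SE 0.40), 1.79 for Egr1 (SE 0.55), 1.27 for Fosb (SE 0.53) and 2.22 for Dusp4 (SE 0.65).

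The abundant members did not pass between the pools. The log2 difference was -0.02 for Klf6 (95% interval -0.59 to 0.55), 0.08 for Crem (interval -0.44 to 0.60), -0.09 for Ier3 (interval -0.67 to 0.49) and 0.21 for Zfp36 (interval -0.32 to 0.74). Each interval leaves out 2-fold. The difference was 0.49 for Dusp5 (SE 0.26), 0.32 for Junb (SE 0.56) and 0.04 for Egr2 (SE 0.38). Junb and Egr2 were higher in pool 2 among the agonist wells and lower in pool 2 among the control wells, by 1.67 and -1.03 for Junb and by 0.43 and -0.36 for Egr2 in log2 CPM. Over all members, 20 of 32 (62.5%) had both wells of pool 2 above both of pool 3, against 25.2% of all tested genes, and 0 had both below, against 24.0%. Fosl1, among the 20, reached the minimum count of 10 only in pool 2, with 19 and 10 reads against 6 and 1 in pool 3. Every count of members higher in pool 2 that includes Fosl1 is therefore partly set by that filter.

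**Figure D4:**
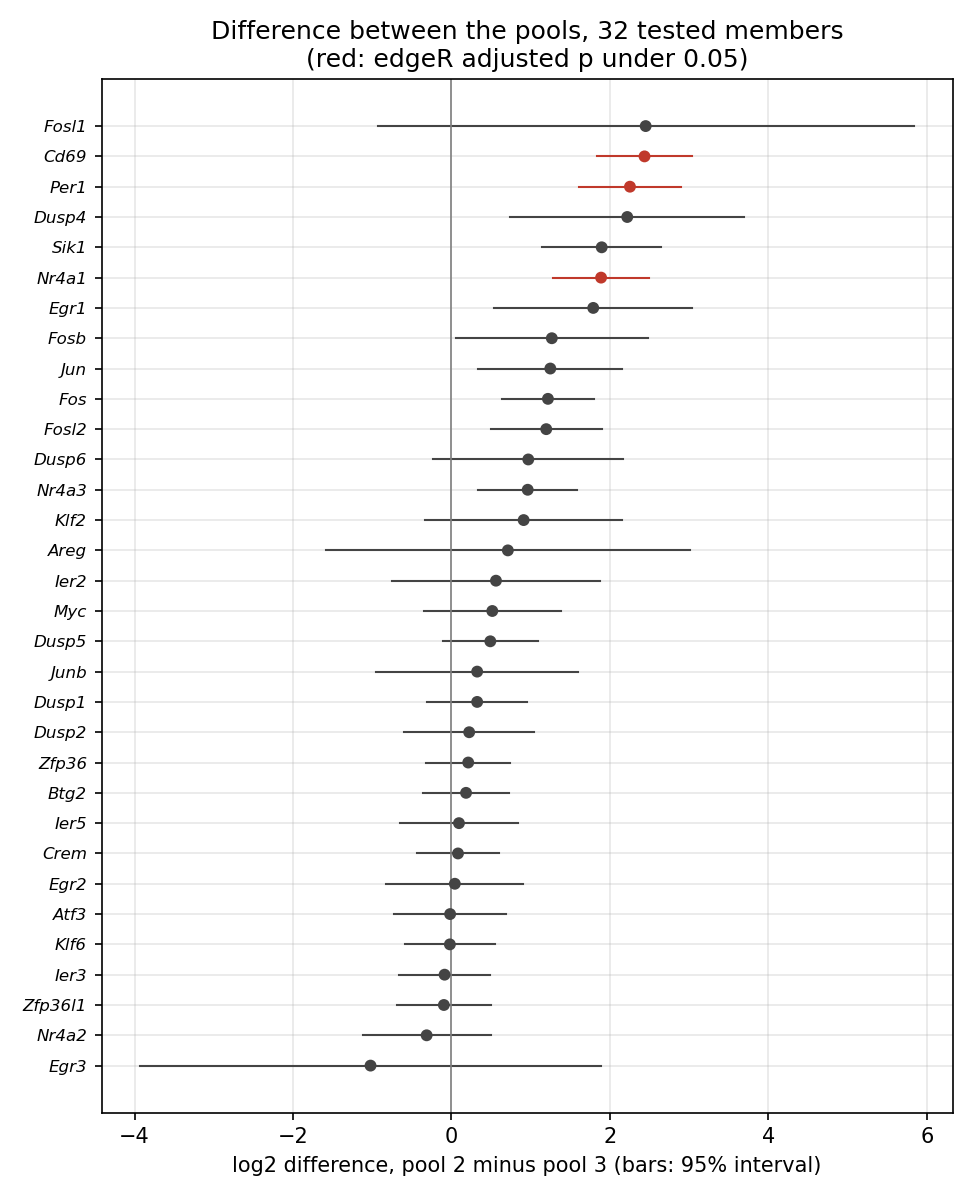
Log2 difference between pools, pool 2 minus pool 3, for the 32 tested members with 95% intervals from the fit with group and pool; red marks the 3 members past the adjusted threshold. The points of 26 members lie above 0 and those of 6 below, with Klf6, Ier3, Crem and Zfp36 close to 0 and Cd69, Per1, Sik1 and Nr4a1 between 1.89 and 2.44. Fosl1, at 2.45 with a wide interval, was tested only through its pool 2 wells.

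Marker levels of several cell types differed between the pools, in both directions. T cell markers summed to 1541 and 1968 CPM in the agonist and control wells of pool 2, against 961 and 1203 CPM in pool 3, with a median log2 difference of 1.08 over 18 genes. B cell markers summed to 1806 and 1981 CPM in pool 2, against 980 and 1211 CPM in pool 3, with a median of 0.80 over 12 genes. Monocyte and macrophage markers (11 genes, none at 0) summed to 5167 and 5815 CPM in pool 2, against 3613 and 3441 CPM in pool 3, and the 7 pDC markers to 966 and 1213 CPM, against 656 and 860 CPM. The members of these lists were not uniform, with 4 of the 11 monocyte and macrophage markers lower in pool 2. Of the 7 pan dendritic cell markers, Itgax was at 178 and 189 CPM in pool 2, against 95.5 and 105 CPM in pool 3, while 4 were lower in pool 2 and the median log2 difference was -0.26. The 9 cDC1 markers had a median of -0.63, with 7 lower in pool 2. The mast cell markers summed to 450.0 and 475 CPM in pool 2, against 832 and 790.1 CPM in pool 3, nearly all of it Kit, and Mcpt4, Tpsb2, Fcer1a and Ms4a2 were at 0 in at least 1 library. T and B cells and monocytes are also known to express Cd69 and Nr4a1. The part of these cells in the differences between the pools was not tested.

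The NR4A receptors and the AP-1 subunits did not keep their proportions. Per length, Nr4a1 stood at 2.86 and 1.19 times Nr4a2 in the agonist wells of pools 2 and 3, and at 10.5 and 1.19 times in the control wells. Junb stood at 2.28 and 1.42 times Fos in agonist wells and at 0.374 and 2.08 times in control wells. In pool 3 the ratio of Nr4a1 to Nr4a2 was the same in both wells, while the control well of pool 2 held both the highest ratio of Nr4a1 to Nr4a2 and the lowest of Junb to Fos. With 1 well per arm in a pool these ratios have no test.

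Genes upstream of these and beside them were read from 6 further lists. In the agonist comparison 0 genes were called in any: 0 of 22 tested in the cAMP and CREB pathway (median log2 fold change -0.06), 0 of 27 in the MAP kinase and serum response pathway (0.14), 0 of 16 among other AP-1 and bZIP partners (0.03), 0 of 34 among other early-response genes (-0.02), 0 of 13 among other dual-specificity phosphatases (0.04) and 0 of 14 among genes of dissociation and culture stress (0.07). Map2k3, a kinase that activates p38, was at 56.7 and 23.1 CPM in agonist wells, against 20.3 and 18.5 CPM in control wells. Nfkbia, the NF-κB inhibitor, was at 441 and 270.0 CPM in agonist wells, against 128 and 262 CPM in control wells. Hsph1, a heat-shock chaperone of the stress list, was at 197 and 132 CPM in agonist wells, against 61.0 and 114 CPM in control wells. In all 3 the gap was wider in pool 2, and in Nfkbia and Hsph1 the control well of pool 2 was the lowest of the 4.

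Between the pools, 2 of the 34 other early-response genes were higher in pool 2 and none of the other 5 lists had a call. Ccl4, a chemokine, was at 53.3 and 95.3 CPM in the agonist and control wells of pool 2, against 7.81 and 11.9 CPM in pool 3 (log2 difference 2.89, SE 0.28, edgeR adjusted p = 0.0087). Plaur, the urokinase receptor, was at 54.8 and 62.5 CPM in pool 2, against 10.1 and 10.2 CPM in pool 3 (2.53, SE 0.28, edgeR adjusted p = 0.0145). In both genes, as in Cd69, the wells of pool 2 lay above those of pool 3, and for Ccl4 the control well was the higher one in each pool. In the stress list Hspa1b, an inducible heat-shock chaperone, was at 106 and 24.1 CPM in pool 2, against 8.69 and 9.67 CPM in pool 3 (2.47, SE 0.52, edgeR adjusted p = 0.0835), while the median of that list was -0.15. Creb1, which encodes CREB, was at 171 and 161 CPM in pool 2, against 236 and 251 CPM in pool 3 (-0.55, SE 0.23, edgeR adjusted p = 0.336), and the median of the cAMP and CREB list was 0.14. The remaining medians were -0.04 for the MAP kinase list, 0.33 for the AP-1 partners, 0.35 for the early-response genes and -0.26 for the phosphatases.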

How the data were processed

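The deposited values are raw read counts per gene, whole numbers that the authors had not normalized. The submitters' processing notes name STAR 2.7, HTSeq 0.11.1 and build GRCm38, and the labels' protocols the SMART-seq v4 kit for low RNA input. No source used here gives the strand setting, so overlapping antisense genes cannot be told apart. Reads outside genes (16.0% to 20.0% of the reads), ambiguous reads (5.77% to 6.50%) and multiply aligned reads (6.54% to 6.99%) name no gene and were left out.

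The fits used edgeR 4.0.16 in R 4.3.3 on all genes (minimum count 10, TMM factors 0.947 to 1.05, two-sided quasi-likelihood test, threshold 0.05). SEs come from the fold change and the F statistic, and intervals use 6.27 degrees of freedom for the agonist fit and 8.88 for fits with 2 terms. RPKM used GENCODE M21 exon lengths. Figures used matplotlib 3.10.9. Fits were tested on simulated data with an effect of either group or pool and never both. The agonist fit was therefore not tried with pool differences present. Wells with the same number came from 1 pool, per the labels' protocols, and deviated together (Pearson r = 0.288 over 18297 genes, 0.582 over the members). DESeq2 1.42.0 and limma-voom 3.58.1 were alternatives.

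Values are given in every library for the 6 members with the smallest agonist p, those past the threshold between pools and the most abundant member of each role; members and lists were chosen with earlier results of these data known. Other members and the listed pathway genes (up to 4 a list) are given as values. Members with an unadjusted p under 0.05 between the pools, Nr4a2 and Dusp2 were given library values after their values were seen. Each group has 2 wells from 2 pools, so p-values measure the spread between these wells.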

Additional observations from a re-analysis of the deposited data

Results flagged for a closer look

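In 6 members the agonist-minus-control difference (log2 CPM) went opposite ways in the pools by at least 0.25 each, higher in pool 2 and lower in pool 3. These 6 are 18.8% of the 32 tested members; 18.8% of all tested genes went opposite ways by as much, and 10.1% did so with pool 2 higher. The difference between the pools was not tested, since a pool has 1 well per arm. For Dusp6, a cytoplasmic ERK phosphatase, they were 1.31 in pool 2 and -0.35 in pool 3, and for Myc, a growth regulator, 0.63 and -0.36. For Fosb they were 0.52 and -0.54, and for Nr4a3 0.45 and -0.31. For Klf2, a factor of quiescent leukocytes, they were 0.29 and -0.49, and for Areg, the epidermal growth factor relative amphiregulin, 0.31 and -0.86. Areg had 33 and 14 reads in agonist wells and 22 and 25 in control wells.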

How the results depend on the processing

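Members called in the agonist comparison numbered 0 under every alternative run. Genes called there numbered 0, against 9 with no filter, 7 with DESeq2, 1 with the replicate block, 6 with the block in DESeq2 and 0 to 2 leaving out a library. The members' median of 0.16 ranged from -0.23 (without agonist replicate 2) to 0.60 (without agonist replicate 3). Between the pools, 72 genes and 3 members were called, against 5 and 0 with total counts only, 600 and 5 with no filter, 8 and 1 with the stricter filter (minimum count 50), 706 and 7 with DESeq2, 275 and 5 with limma-voom, and 5 and 0 without the group term. Leaving out a library gave 1 to 1575 genes and 0 to 9 members, with pool as the only term. Total counts alone moved the median of all genes between the pools to 0.09.

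Small agonist values changed sign: with the stricter filter Ier3 was 0.0098, Crem 0.0050 and Zfp36 0.0048, and Cd69 was 0.00014 with limma-voom and 0.0079 with the block in DESeq2. Klf6 between the pools was 0.062 with total counts and 0.035 with the stricter filter. Leaving out a library, the agonist value ranged from -0.28 to 1.15 for Fos, -0.60 to 0.71 for Nr4a3, -0.23 to 0.15 for Ier3, -0.064 to 0.032 for Crem, -0.54 to 0.14 for Dusp5, -0.26 to 0.084 for Klf6, -0.14 to 0.13 for Zfp36 and -1.64 to 1.69 for Cd69. Between the pools it ranged from -1.07 to 1.68 for Junb, -0.49 to 0.54 for Egr2, -0.25 to 0.043 for Ier3 and -0.22 to 0.15 for Klf6. Over all 32 members, 22 changed sign in the agonist comparison when a library was left out and 11 between the pools, and 7 and 2 under the other alternatives. In the agonist comparison, leaving out a well leaves its arm with only the other pool, so the value also holds the difference between pools. The cause of these changes was not tested. The block changed no member's call.

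With 2 wells per group, an arm reduced to 1 well is assumed to vary like the others. The low counts of Egr3, Fosl1 and Areg limit what depth can show, and Jund could not be tested.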
